A study of Mus musculus with 15 samples.

Results

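Interferon beta, its induction and its receptor were followed through 6 genes: Ifnb1, Ifih1, Tbk1, Ikbke, Ifnar1 and Ifnar2. They were chosen by symbol as parts of 1 pathway, with earlier results of these data known, they are 6 of the 561 genes counted, and all 6 averaged at least 20 counts per sample, the bar for testing that 269 genes met. Transcripts were counted on the Mouse Immunology panel of the nanoString nCounter, an assay in which barcoded probes hybridize to single mRNA molecules and no amplification takes place. The cells were RAW264.7, an established mouse macrophage line, so that all groups share the genotype of the cells and are named by the plasma extracellular vesicles (EVs) that were added. All cells received lipopolysaccharide (LPS), a bacterial cell wall component, together with EVs for a day.

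The 15 samples formed 5 groups of 3, named by the EV donors. Donors were female C57BL/6J mice that were sham treated, or that had been exposed to whole-body ionizing radiation (WBIR) from a cesium source at 2 Gy or at 9 Gy, with plasma taken 3 or 7 days after the exposure. The comparison with sham EVs asks whether vesicles from irradiated mice alter the LPS response of macrophages, and the comparison of 9 Gy with 2 Gy whether this depends on the dose. Any difference in how the samples of a dose were handled or run goes with the dose and was not tested. Cells with LPS and no EVs, or without LPS, were not analysed here, so a difference is one between EVs under LPS. The labels and methods do not say whether the 3 samples of a group received EVs from different mice, so p-values measure the spread between samples, which may be technical. For 2 samples titled 9 Gy day 3, replicates 1 and 2, another field of the labels gives day 7, and they were placed by title.

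Type I interferon is made when a cell detects a pathogen. RIG-I-like receptors such as MDA5, encoded by Ifih1, detect viral RNA in the cytosol, while Toll-like receptor 4 detects LPS at the cell surface and from endosomes. Both routes lead to the kinases TBK1 and IKK-epsilon, encoded by Tbk1 and Ikbke, which phosphorylate interferon regulatory factors (IRFs), and these act with NF-κB at the Ifnb1 promoter. The secreted interferon beta binds a receptor made of IFNAR1 and IFNAR2, whose kinases TYK2 and JAK1 activate transcription factors that include STAT2, and Ifih1 is itself among the genes that interferon induces.

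The letters of this control are shown for the 2 of these genes with the highest change in the 9 Gy groups. RefSeq promoters in build GRCm38.p6, each with 250 bases before and 50 after the annotated start, were held for 6 of the 6 genes. A motif of the NF-κB type (GGG, any 3 bases, then TTCC) and a motif of the IRF type (GAAA, any 2 bases, then GAAA) were searched on both strands. A shorter IRF core, AANNGAAA, was added after the letters had been seen, and the IRF type motif contains it. Bases are numbered from the annotated start.
Ifnb1 promoter, chr4:88522885-88522959, minus strand, bases -165 to -91, with matches to the NF-κB type motif and the IRF core in capitals: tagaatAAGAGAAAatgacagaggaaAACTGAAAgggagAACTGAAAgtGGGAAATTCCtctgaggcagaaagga
Ifih1 start region, chr2:62646206-62646233, minus strand, bases 23 to 50 after the start, with the IRF type match in capitals: gaagagaatcGAAACAGAAAccgatctg
In Ifnb1 the NF-κB type match lay at -116 to -107, and 3 matches to the IRF core lay before it, the nearest at -126 to -119. Of the 6 genes, the NF-κB type motif was matched in Ifnb1 only and the IRF type motif in Ifih1 only, while the core was also matched in Ikbke. Of 32851 promoters of this length, 5.56% held the NF-κB type motif, 3.44% the IRF type motif and 23.9% the core, so a match is a description of the letters and not a site shown to be used.

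Total counts ranged from 453178 to 837995 per sample outside the 9 Gy day 3 group and from 43176 to 87899 within it, so that group carries the larger counting error. Among the 18 values of the 6 genes in that group, 1 was under 20 counts. Normalized counts are counts divided by a factor from the geometric mean of 14 housekeeping genes in the same sample. That mean was 448 to 603 over the sham and 2 Gy samples, 69.2 to 124 at 9 Gy day 3 and 801 to 872 at 9 Gy day 7. Of 13 housekeeping genes tested, 3 were called higher and 6 lower with 9 Gy day 3 EVs, and 4 were called higher and 4 lower with 9 Gy day 7 EVs, with Tubb5, a tubulin, at a log2 change of 1.38 and 1.63 and Rpl19, a ribosomal protein gene, at -0.74 and -0.87. The median log2 change of all 269 genes was -0.46 and -0.45 on this scale, and -0.27 and -0.25 with only the housekeeping genes of a mean of at least 100. It was 0.01 and 0.03 after trimmed mean (TMM) scaling, and 0.56 and 0.65 after scaling to total counts. Ccl5 alone held 21.2% to 22.5% of all counts with sham EVs, and in the 9 Gy groups 7.87% to 9.51% at day 3 and 10.3% to 11.3% at day 7. Directions of the 6 genes and of the lists below are on the housekeeping scale unless another is named, and stand beside the scalings under which they turned.

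All 8 macrophage markers on the panel were tested, and their summed normalized count was 4900 to 8332 with sham EVs, 5404 to 7168 and 4988 to 6771 with 2 Gy day 3 and day 7 EVs, and 2413 to 4184 and 2481 to 3831 with 9 Gy day 3 and day 7 EVs. Emr1, which encodes F4/80, was counted 1381 to 1850 times with sham EVs. At both 9 Gy days Cd14, Emr1, Fcgr1, Fcgr3, Itgam and Msr1 were called lower, Csf1r was called higher and Cd36 passed in neither direction. After TMM scaling 1 was called higher and 3 lower at day 3 and 1 and 4 at day 7, and after scaling to total counts 2 and 1 and 2 and 0. In these bulk samples fewer cells of a type and less RNA per cell cannot be told apart. Most markers of other blood cells that EV preparations could bring along were low. The highest raw count of a T cell marker was 125 with sham EVs, and 175 and 163 with 2 Gy day 3 and day 7 EVs. Of 10 T cell markers 2 were tested, of 6 B cell markers 1, and of 5 NK cell, 5 neutrophil, 2 dendritic cell and 3 platelet markers none had a mean of 20 counts. The T cell markers tested were called lower at both 9 Gy days on the housekeeping scale. Summed normalized counts of the T cell markers were 165 to 210 with sham EVs, 181 to 227 over both 2 Gy groups, and with 9 Gy EVs 88.1 to 136 at day 3 and 97.8 to 116 at day 7. For the B cell markers they were 45.2 to 63.1, 49.5 to 59.8, 39.6 to 65.2 and 29.2 to 33.9 in the same order. No marker was at 0, since the lowest deposited count was 1. The part of these differences in the results below was not tested.

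Ifnb1, the gene of the ligand, separated the 9 Gy groups from the other groups. With sham EVs its normalized count was 15.4, 30.8 and 7.53 in replicates 1 to 3. With 2 Gy EVs it was 11.0, 23.1 and 21.7 at day 3 and 9.61, 35.6 and 26.6 at day 7. With 9 Gy EVs it was 545, 388 and 122 at day 3 and 355, 364 and 118 at day 7. Every 9 Gy sample lay above every other sample, and the sham and 2 Gy samples overlapped. Such a separation was common, since 55.8% of all genes tested did not overlap between 9 Gy day 3 and sham EVs, 61.7% between 9 Gy day 7 and sham EVs, and 43.9% between the 9 Gy and 2 Gy samples. Replicate 3 was the lowest of its group at both 9 Gy days, at 0.262 and 0.328 of the mean of replicates 1 and 2. The group means were 17.9 ± 11.8 with sham EVs, 18.6 ± 6.64 and 23.9 ± 13.2 with 2 Gy EVs, and 352 ± 214 and 279 ± 140 with 9 Gy day 3 and day 7 EVs (SD, n = 3).

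Against sham EVs, Ifnb1 was 19.1-fold higher with 9 Gy day 3 EVs (log2 change 4.25, SE 0.68, edgeR adjusted p = 0.000158). With 9 Gy day 7 EVs it was 15.5-fold higher (log2 change 3.95, SE 0.65, edgeR adjusted p = 0.000167). In both comparisons it had the highest change of the 269 genes tested, and it was higher under each of the 4 scalings tried. Leaving out 1 sample at a time gave log2 changes of 3.81 to 4.92 at day 3 and 3.57 to 4.62 at day 7, the highest of both without sham replicate 2, which moved the fold by over 1.5 times. The sham level is close to the floor of the assay. Before scaling, the sham samples held 17, 40 and 10 counts of Ifnb1, while the median count of 16 T and B cell markers, which this line is not known to express, was 6.5 to 12 in the same samples, though the highest single marker count was 125. With that median subtracted from every count of the sample, an alternative chosen after seeing the data, the log2 change was 5.01 (SE 0.89) and 4.70 (SE 0.86). With the samples that carry conflicting day labels left out, which leaves replicate 3 alone at 9 Gy day 3 and assumes that it varies like the other groups, the day 3 change was 2.76 (SE 0.85, edgeR adjusted p = 0.0298).

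**Figure D1:**
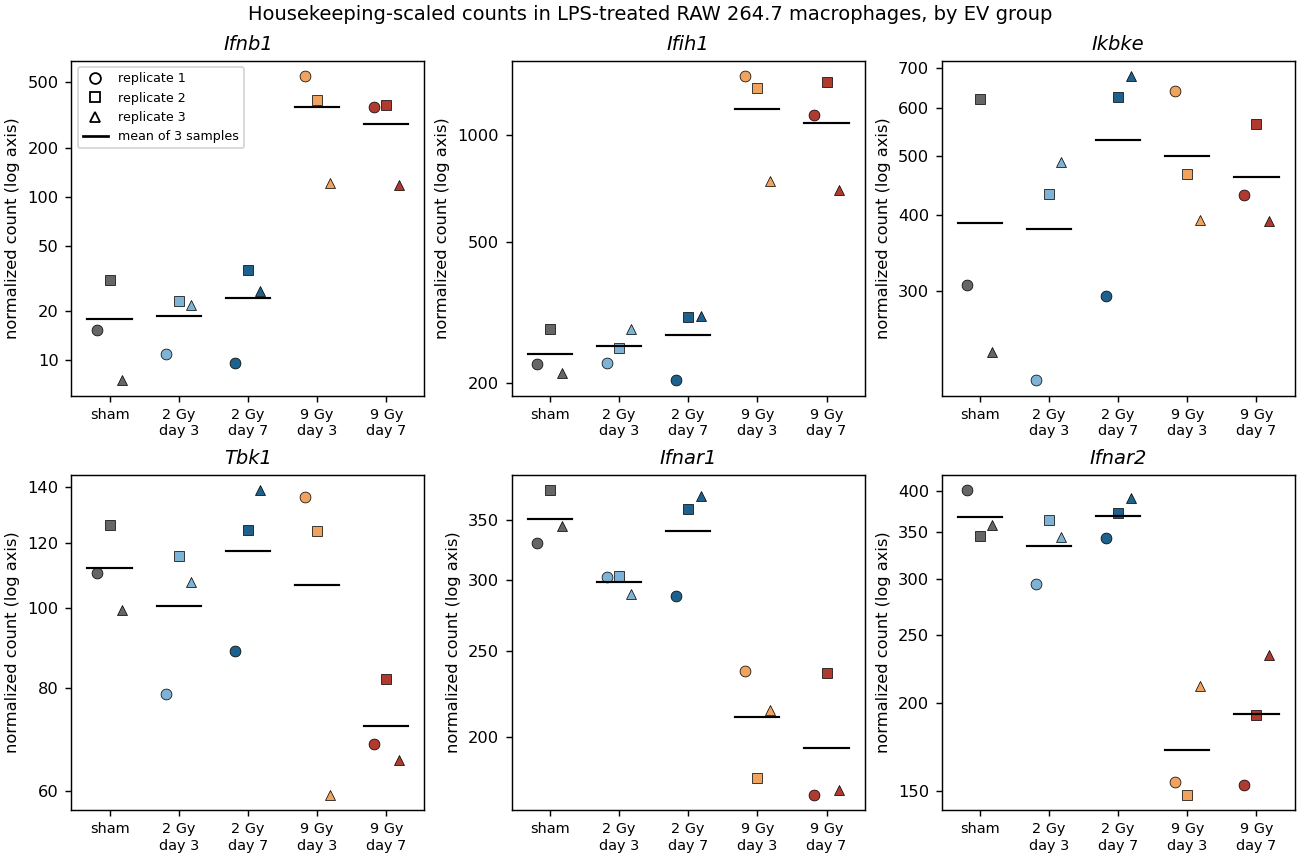
Normalized counts of the 6 genes (log axes that differ between panels) in each of the 15 samples, by EV group, with 1 point per sample, marker shape for the replicate number and a line at the mean of 3 samples. The 9 Gy samples lie above all others for Ifnb1 (118 to 545) and Ifih1 (700 to 1458), while Ikbke and Tbk1 overlap between most groups and the lower 9 Gy levels of Ifnar1 and Ifnar2 hold on this scale.

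Ifih1, the RNA sensor gene, followed the same order of groups. Its normalized count was 228, 284 and 215 with sham EVs, and with 2 Gy EVs 229, 251 and 284 at day 3 and 204, 307 and 309 at day 7. With 9 Gy EVs it was 1458, 1353 and 740 at day 3 and 1132, 1404 and 700 at day 7. The 9 Gy samples did not overlap with any other group, and replicate 3 was again the lowest of its group at both 9 Gy days, at 0.526 and 0.552 of the mean of the other two. Ifih1 was 4.87-fold higher than with sham EVs at day 3 (log2 change 2.28, SE 0.29, edgeR adjusted p = 2.25e-05) and 4.45-fold higher at day 7 (2.16, SE 0.29, edgeR adjusted p = 2.79e-05). Without the 2 samples whose labels disagree on the day, the day 3 change was 1.61 (SE 0.33, edgeR adjusted p = 0.00411). It had the 5th and the 3rd highest change of the genes tested, under all 4 scalings it was higher, and its 9 Gy day 3 counts of 246, 338 and 224 were well above those of the lymphocyte markers.

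Ifih1 was also the gene most like Ifnb1 across all samples. Over the log2 normalized counts of the 15 samples, Pearson's r with Ifnb1 was 0.99 for Ifih1, 0.98 for Icam1, an adhesion molecule, 0.97 for Ltb, lymphotoxin beta, and 0.96 for both Cxcl10, an interferon-induced chemokine, and Ppia, cyclophilin A. Ppia is among the housekeeping genes that set the scale, and it was itself called higher at both 9 Gy days (1.02 and 1.00). The lowest values were -0.99 for Cebpb, a transcription factor of myeloid cells, and -0.98 for both Psmb7, a proteasome subunit, and Ifngr2, a chain of the interferon gamma receptor. The samples fall into the 9 Gy samples and the rest, and share their scaling, so these values mostly describe that split. Within the 9 Gy samples the order was shared in part, since both replicates numbered 3 were the lowest 2 of the 6 for each of Ifnb1 and Ifih1.

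**Figure D2:**
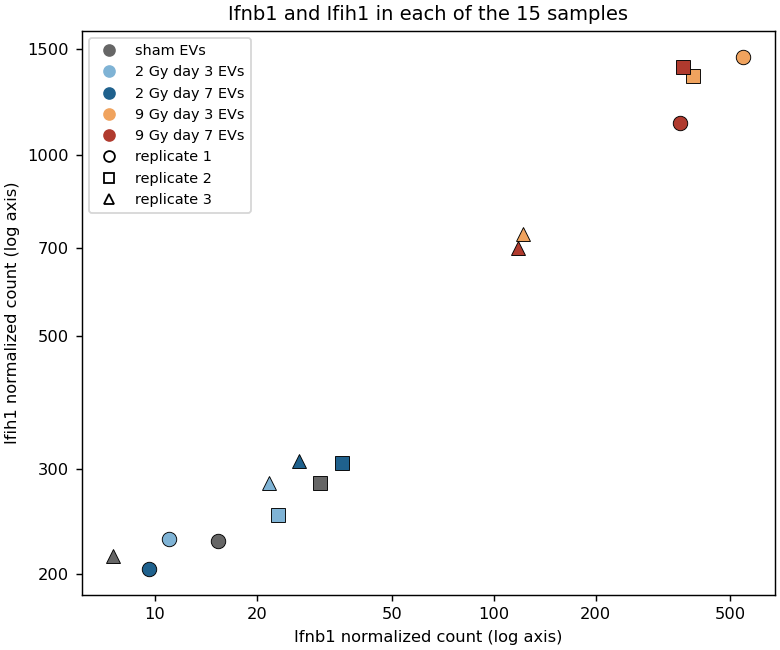
Normalized count of Ifih1 against that of Ifnb1 (both axes logarithmic), with 1 point per sample, color for the EV group and marker shape for the replicate number. The 9 Gy samples form a separate cluster in which both replicates numbered 3 (Ifnb1 122 and 118) lie nearest to the sham and 2 Gy samples.

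The groups were not separated by the kinase genes Tbk1 and Ikbke as they were by Ifnb1. Within each of the 5 groups, the sample lowest in Ifnb1 was also the lowest in both, and over the 15 samples Pearson's r with Ifnb1 was 0.53 for Ikbke and -0.15 for Tbk1. For Tbk1 the normalized count was 110, 126 and 99.4 with sham EVs, and with 2 Gy EVs 78.7, 116 and 108 at day 3 and 88.7, 124 and 139 at day 7. With 9 Gy EVs it was 136, 124 and 59.4 at day 3, on raw counts of 23, 31 and 18, and 68.4, 81.9 and 65.4 at day 7. The 9 Gy day 3 samples spanned the sham range, and the 9 Gy day 7 samples lay below it. At 9 Gy day 3 the log2 change was -0.11 (SE 0.28, edgeR adjusted p = 0.747), and it was above 0 under the other scalings, up to 0.93 (edgeR adjusted p = 0.0198) after scaling to total counts. At 9 Gy day 7 Tbk1 was called lower (-0.64, SE 0.25, edgeR adjusted p = 0.0362), which was lost after TMM scaling (-0.15) and turned to 0.48 after scaling to total counts. That call was also lost without 9 Gy day 7 replicate 1 (-0.60, edgeR adjusted p = 0.0966), without its replicate 3 (-0.57, 0.0899), without sham replicate 1 (-0.65, 0.0677) and without sham replicate 2 (-0.54, 0.0980).

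Ikbke, the gene of the inducible kinase IKK-epsilon, varied as much within groups as between them. Its normalized count was 307, 621 and 238 with sham EVs. With 2 Gy EVs it was 213, 433 and 490 at day 3 and 294, 627 and 678 at day 7, and with 9 Gy EVs 640, 468 and 393 at day 3 and 432, 566 and 391 at day 7. All groups overlapped. The log2 change against sham EVs was 0.35 (SE 0.41, edgeR adjusted p = 0.482) at 9 Gy day 3 and 0.25 (SE 0.39, edgeR adjusted p = 0.591) at 9 Gy day 7, and it passed the threshold at both days after scaling to total counts (1.41 and 1.40). These standard errors leave room for a change of either sign.

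Ratios of 2 genes within a sample do not depend on the scaling. The count of Ifih1 was 2.16 ± 0.0922 times that of Tbk1 with sham EVs, 2.57 ± 0.373 and 2.33 ± 0.125 times with 2 Gy day 3 and day 7 EVs, and 11.3 ± 0.955 and 14.8 ± 3.57 times with 9 Gy EVs (SD, n = 3), with no overlap between the 9 Gy samples and the others. The ratio of Ikbke to Tbk1 was 2.39 to 4.93 with sham EVs, and with 9 Gy EVs 3.77 to 6.61 at day 3 and 5.98 to 6.91 at day 7. The day 7 samples lay above the sham samples and the day 3 samples overlapped with them. A ratio of this kind shows unequal change of its genes and not which of them changed, and it does not compare their levels, since each count depends on its own probe.

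The receptor genes went the other way on the housekeeping scale. Ifnar1, the gene of the chain that binds TYK2, had a normalized count of 330, 378 and 345 with sham EVs. With 2 Gy EVs it was 302, 303 and 289 at day 3 and 287, 360 and 372 at day 7, and with 9 Gy EVs 237, 180 and 215 at day 3 and 173, 236 and 175 at day 7. Every 9 Gy sample lay below every sham and 2 Gy sample. The log2 change against sham EVs was -0.74 (SE 0.17, edgeR adjusted p = 0.00234) at day 3 and -0.85 (SE 0.15, edgeR adjusted p = 0.000353) at day 7, beside a median of -0.46 and -0.45 over all genes. After TMM scaling it was -0.27 (edgeR adjusted p = 0.148) and -0.37 (0.0332), and after scaling to total counts it turned to 0.28 and 0.27 and passed at neither day.

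Ifnar2, the gene of the chain that binds JAK1, had a normalized count of 401, 345 and 358 with sham EVs. With 2 Gy EVs it was 295, 364 and 344 at day 3 and 343, 372 and 391 at day 7, and with 9 Gy EVs 154, 148 and 211 at day 3 and 153, 192 and 234 at day 7. The 9 Gy samples again lay below all others. The log2 change was -1.09 (SE 0.19, edgeR adjusted p = 0.000260) at day 3 and -0.93 (SE 0.17, edgeR adjusted p = 0.000365) at day 7. It remained past the threshold after TMM scaling (-0.62 and -0.46) and did not after scaling to total counts (-0.08 and 0.15, the second with its sign turned). The ratio of Ifnar1 to Ifnar2 was 0.960 ± 0.136 with sham EVs, and with 9 Gy EVs 1.26 ± 0.264 at day 3 and 1.03 ± 0.255 at day 7 (SD, n = 3), and these ranges overlapped. The ratio of ligand to receptor gene, Ifnb1 over Ifnar1, was 0.0218 to 0.0815 with sham EVs and 0.569 to 2.30 over both 9 Gy groups, with no overlap.

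**Figure D3:**
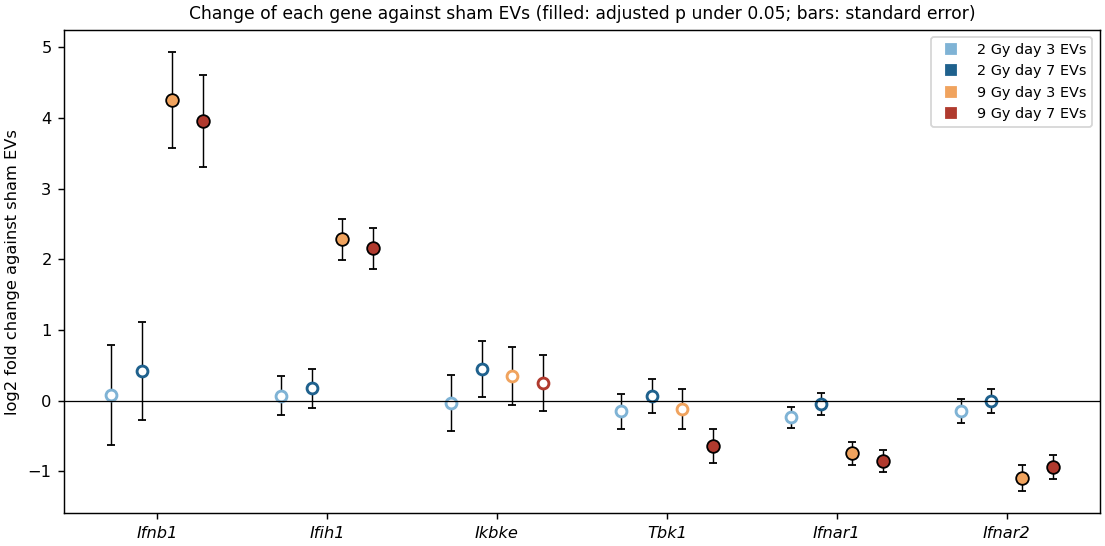
Log2 fold change of each gene against sham EVs (y axis, housekeeping scale) for the 4 irradiated EV groups, with bars for the standard error and filled points where the edgeR adjusted p was under 0.05. Ifnb1 and Ifih1 are high with 9 Gy EVs at both days (4.25 and 3.95, 2.28 and 2.16), the 2 Gy points reach at most 0.45 (Ikbke at day 7), and the 9 Gy values of Ifnar1, Ifnar2 and Tbk1 below 0 are those that turn or are lost under other scalings.

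Counted over the 6 genes, 2 were called higher and 2 lower with 9 Gy day 3 EVs than with sham EVs, where 11.2% of the 269 genes tested were called higher and 41.3% lower. With 9 Gy day 7 EVs 2 were called higher and 3 lower, against 11.9% and 49.1% of the genes tested. The shares called lower are near those of all genes, so they set the receptor genes and Tbk1 apart from no other genes. The median log2 change of the 6 genes was 0.12 and -0.19, beside -0.46 and -0.45 over all genes tested. Both comparisons share the sham samples. The split of calls over all genes moved with the scaling, from 30 of 141 calls higher at 9 Gy day 3 on the housekeeping scale to 59 of 119 after TMM scaling and 121 of 154 after scaling to total counts, and from 32 of 164 to 75 of 151 and 143 of 174 at day 7.

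**Figure D4:**
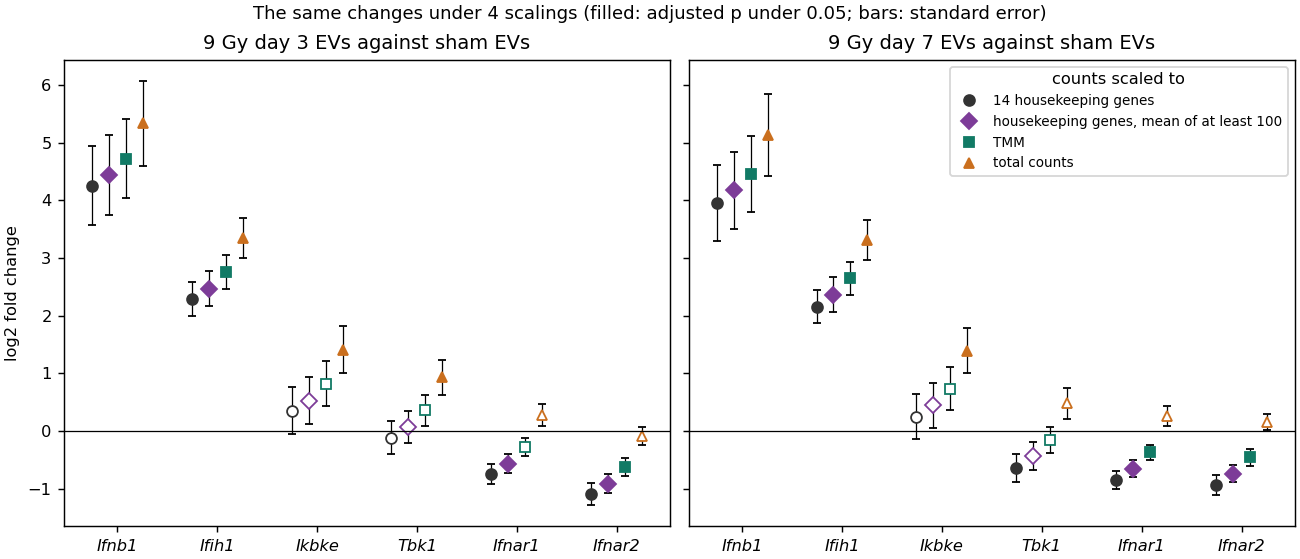
Log2 fold change of each gene against sham EVs with 9 Gy day 3 EVs (left) and 9 Gy day 7 EVs (right) under 4 scalings of the counts, with bars for the standard error and filled points where the edgeR adjusted p was under 0.05. Ifnb1 and Ifih1 are filled and above 0 throughout, while Ikbke, Tbk1, Ifnar1 and Ifnar2 move across 0 or across the threshold with the scaling, Ifnar1 at day 3 from -0.74 to 0.28.

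With 2 Gy EVs none of the 6 genes passed the threshold against sham EVs at day 3 or at day 7, where 0% and 0% of the genes tested were called by edgeR, and none had an unadjusted p under 0.05, as 7 genes and 1 gene of the 269 did. DESeq2 with the same housekeeping scaling called 1 gene at day 3 and none of the 6. At day 3 the log2 change was 0.08 (SE 0.71) for Ifnb1, 0.07 (SE 0.28) for Ifih1 and -0.04 (SE 0.40) for Ikbke, with Tbk1 at -0.15 (SE 0.25) and Ifnar2 at -0.14 (SE 0.17). Ifnar1 was the exception in its separation, since its 3 samples (289 to 303) lay below the 3 sham samples (330 to 378) at a log2 change of -0.23 (SE 0.15, edgeR adjusted p = 0.998). The paper reports Ifnar1 among the genes significantly lowered with these EVs, from nSolver values whose settings are not given. Of all genes tested, 13.0% had 2 Gy day 3 samples that did not overlap with the sham samples. At day 7 the highest values were 0.45 (SE 0.39) for Ikbke and 0.42 (SE 0.69) for Ifnb1, both with an edgeR adjusted p of 0.944, and the rest were Ifih1 at 0.18, Tbk1 at 0.07, Ifnar1 at -0.05 and Ifnar2 at 0.0022. For Ifnb1 the standard error at its low counts is too wide to tell a small change from none.

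The dose comparison, both 9 Gy groups against both 2 Gy groups, shares no sample with the sham group. Ifnb1 was 14.5-fold higher with 9 Gy EVs (log2 difference 3.86, SE 0.46, edgeR adjusted p = 5.65e-06) and Ifih1 4.27-fold higher (2.10, SE 0.20, edgeR adjusted p = 7.26e-07). Without the 2 samples whose labels disagree on the day, or with both placed at day 7, the difference of Ifnb1 was 3.11 or 3.26 and passed either way. Ifnar1 was lower by a log2 difference of -0.66 (SE 0.11, edgeR adjusted p = 0.000189) and Ifnar2 by -0.94 (SE 0.13, edgeR adjusted p = 1.75e-05), both on the housekeeping scale. After TMM scaling Ifnar1 lost its call (-0.20, edgeR adjusted p = 0.109) and Ifnar2 did not (-0.48). After scaling to total counts Ifnar1 was called higher (0.49, edgeR adjusted p = 0.00324), and Ifnar2 turned to 0.18 without a call. Tbk1 (-0.33, SE 0.19, edgeR adjusted p = 0.12) and Ikbke (0.09, SE 0.28, edgeR adjusted p = 0.783) did not pass on the housekeeping scale, and both were called higher after scaling to total counts, at 0.82 (edgeR adjusted p = 0.00207) and 1.26 (edgeR adjusted p = 0.000976). Samples with the same number deviated together between the 2 days of a dose, so the test over 6 samples against 6 may count related samples as separate. With both days of a number averaged, 3 against 3, an alternative chosen after seeing the data, Ifnb1, Ifih1, Ifnar1 and Ifnar2 were called as before, at 3.74 (SE 0.57, limma adjusted p = 0.00163), 2.05, -0.66 and -0.96. Of all genes tested 15.6% were called higher and 52% lower, and the calls split into 42 of 182 higher, 89 of 169 after TMM scaling and 168 of 204 after scaling to total counts.

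Between the days after 9 Gy none of the 6 genes passed, as 0% of the genes tested did, and none had an unadjusted p under 0.05, as 6 of the 269 did. The log2 difference of day 7 from day 3 was -0.30 (SE 0.56) for Ifnb1, -0.13 (SE 0.28) for Ifih1, -0.10 (SE 0.41) for Ikbke, -0.53 (SE 0.28) for Tbk1, -0.11 (SE 0.17) for Ifnar1 and 0.16 (SE 0.19) for Ifnar2. All of these signs but that of Ifnar1 depended on the 2 day 3 samples whose labels disagree on the day. Without those 2, replicate 3 stood alone at day 3 against day 7 samples of every number, so number and day changed together. With both placed at day 7, or left out, 5 of the 6 turned, Ifnb1 to 1.48 or 1.19 and Ifih1 to 0.70 or 0.54, and none passed. Within replicate 3, the normalized counts at day 3 and day 7 were 122 and 118 for Ifnb1, 740 and 700 for Ifih1 and 393 and 391 for Ikbke. For Ifnar2 they were 211 and 234, and for Tbk1 59.4 and 65.4, of which only Tbk1 has the turned sign. With the replicate number as a block in the 9 Gy groups alone, the difference of Ifnb1 was -0.28 (SE 0.16, edgeR adjusted p = 0.583).

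The genes around the 6 were taken from lists of the pathway. Of 23 sensors, adaptors and factors that act upstream of Ifnb1, 16 were on the panel and 11 were tested. At 9 Gy day 3, 1 was called higher and 4 lower, and at day 7 none higher and 4 lower, with a median log2 change of -0.17 and -0.02, beside 11.2% of all genes higher and 41.3% lower at day 3 and 11.9% and 49.1% at day 7. The balance turned with the scaling, to 3 higher and 1 lower at day 3 and 5 and 1 at day 7 after TMM scaling, and to 5 and 1 at both days after scaling to total counts (medians 0.84 and 1.07). Irf7, the gene of the factor that carries interferon production forward, had a normalized count of 3951 ± 328 with sham EVs, and with 9 Gy EVs 722 ± 285 at day 3 and 770 ± 250 at day 7 (SD, n = 3), at a log2 change of -2.44 (SE 0.26) and -2.36 (SE 0.25, edgeR adjusted p = 4.63e-06 and 4.61e-06). It was called lower at both days after TMM and total-count scaling too. Cd14, the LPS co-receptor, was at -1.20 and -1.34 and was lost after TMM and total-count scaling. Ddx58, which encodes RIG-I, the other cytosolic RNA sensor measured, was at 0.26 (SE 0.17) and 0.23 (SE 0.17) and did not pass on the housekeeping scale, while it was called higher at both days after TMM scaling (0.73 and 0.71) and after scaling to total counts (1.29 and 1.34). Irf3, the factor that TBK1 activates first, was at 8 to 16 raw counts with sham EVs and was not tested.

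Downstream of the receptor, 6 of 8 signaling genes were on the panel and 5 were tested, with 1 called higher and 1 lower at 9 Gy day 3 and 1 higher and 2 lower at day 7, at a median of -0.53 and -0.20, beside the same 11.2% and 41.3%, and 11.9% and 49.1%, of all genes. After scaling to total counts 2 and 3 were called higher and none lower, at a median of 0.51 and 0.92. Tyk2, the kinase bound to IFNAR1, rose from 39.9 ± 3.47 normalized counts with sham EVs to 99.7 ± 22.0 and 68.0 ± 15.3 with 9 Gy EVs (log2 change 1.28 and 0.76), and it was higher under TMM and total-count scaling as well. Jak1, the kinase bound to IFNAR2, was at -0.67 and -0.77, which was lost after TMM scaling and turned to 0.35 and 0.32 after scaling to total counts. Stat2 was at -0.53 and -0.20 and passed at neither day on the housekeeping scale, but was called higher at day 7 after scaling to total counts (0.92).

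Genes that interferon induces moved both ways. Of 26 listed, 16 were on the panel and 14 were tested. At 9 Gy day 3, 4 were called higher and 7 lower, and at day 7 5 higher and 7 lower, at a median of -0.13 and -0.04, again beside 11.2% and 41.3%, and 11.9% and 49.1%, of all genes. After TMM scaling 6 were higher and 5 lower at day 3 and 6 and 4 at day 7, and after scaling to total counts 7 and 3 and 8 and 2 (medians 0.88 and 1.05), so which direction held more calls depended on the scaling. Cxcl10, a chemokine for T cells, rose from 1548 ± 330 to 7748 ± 4031 and 6551 ± 3062 normalized counts (log2 change 2.32 and 2.08). Ccl5, a chemokine that NF-κB also drives, fell from 115415 ± 3605 to 23546 ± 3782 and 27420 ± 4724 (-2.29 and -2.07). Under each of the housekeeping, TMM and total-count scalings and at both days, Cxcl10, Cxcl11, Ifi204 and Irgm1 were called higher and Bst2 and Ccl5 lower. The list of other interferons and receptors had 6 of 10 genes on the panel and 3 tested. Of these, Ifngr2 was at -1.44 and -1.61, and after scaling to total counts it lost its call at day 3 (-0.44) and kept it at day 7 (-0.54). Il10rb was at -0.89 and -0.84, lost its calls after TMM scaling and turned to 0.12 and 0.24 after scaling to total counts. Ifngr1 passed at neither day on the housekeeping scale and was called higher at both days after scaling to total counts (1.02 at day 7). Ifna1 and Ifna2 were counted 4 to 10 and 2 to 9 times with sham EVs and 1 time in each 9 Gy day 3 sample. At 9 Gy day 7 they were counted 4 to 12 and 3 to 5 times, where the median lymphocyte marker was at 8.5 to 10, so no level of interferon alpha transcripts could be told from the floor at this depth.

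**Figure D5:**
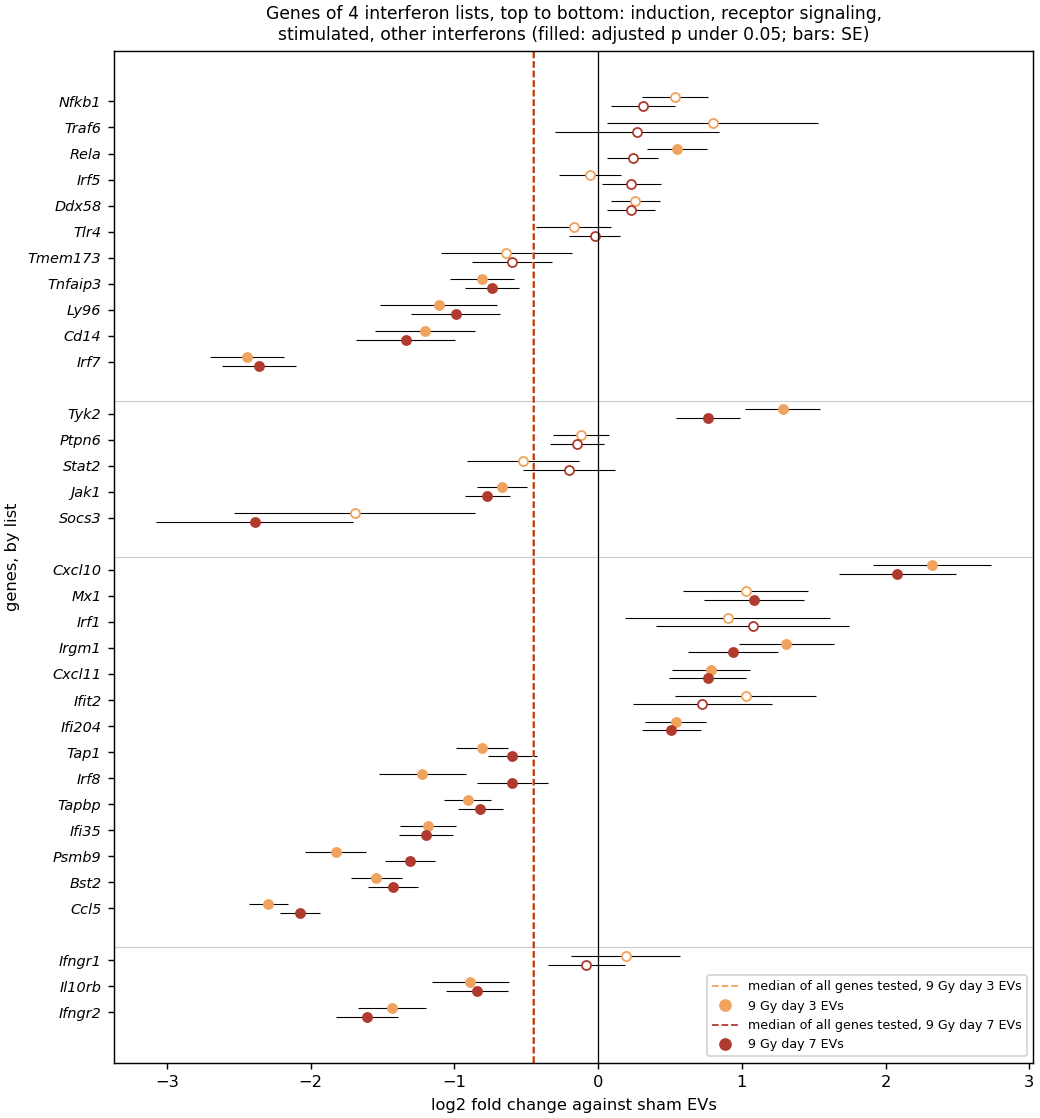
Log2 fold change against sham EVs (x axis, housekeeping scale) of the tested genes of 4 interferon lists, with bars for the standard error, filled points where the edgeR adjusted p was under 0.05 and dashed lines at the median of all genes tested (-0.46 and -0.45). Interferon-stimulated genes lie on both sides of 0 at both days, from Cxcl10 (2.32 and 2.08) to Ccl5 (-2.29 and -2.07), and Jak1 and Il10rb are among those that turn after scaling to total counts.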

How the data were processed

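The authors deposited raw nanoString counts for 561 mouse genes in 15 samples, as whole numbers with none below 1. Control probes were not analysed here, and the nSolver settings that the study used are not given in the sources used here. Samples were grouped by title. Each sample was scaled by its geometric mean over 14 housekeeping genes, and the 269 genes that averaged at least 20 counts entered 1 edgeR quasi-likelihood fit over all 5 groups (edgeR 4.0.16, R 4.3.3, prior count 0.125). Benjamini-Hochberg adjustment covered all genes tested in each of 6 comparisons, with a threshold of 0.05, and a gene past it is named as called. The standard error was obtained from the log2 change and the F statistic, as the absolute change over the root of F. The fit was tested on simulated data in which no housekeeping gene was changed. That test therefore does not bear on the choice of scaling.

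The 6 genes, the pathway and marker lists and the motifs were chosen with earlier results of these data known. All 6 genes are given in every comparison. Named besides them are the 5 genes with the highest and the 3 with the lowest correlation with Ifnb1, the 2 largest changes per pathway list called at both 9 Gy days, and Irf3, Irf7, Stat2, Jak1 and Tyk2. Ddx58, Ifngr1, the 2 interferon alpha genes, the genes called under 3 scalings, Tubb5, Rpl19 and the macrophage markers were named after their values were seen. One gene of the receptor signaling list is not reported here and was left out of that list's counts.

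The alternatives were TMM, total-count and abundant-housekeeping scaling, other filters, a floor of counts at 20, a prior count of 10, only the groups compared, the replicate block, both treatments of the conflicting day labels, DESeq2 1.42.0, leaving out each sample and, for the dose, limma 3.58.1 on log2 normalized counts (pseudocount 1) averaged over both days of a number. Samples with the same number deviated together from their group means between the days of 9 Gy (r = 0.33 to 0.72 across genes) and of 2 Gy (0.36 to 0.78), but not in every pair between other groups. Different numbers reached 0.42 between the 9 Gy days and 0.61 between the 2 Gy days. Between sham and 2 Gy samples the same number gave -0.59 to 0.47 at day 3 and -0.66 to 0.65 at day 7, and different numbers reached 0.73 and 0.78. The numbers were taken as pairs only between days, which these ranges do not settle.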

Additional observations from a re-analysis of the deposited data

Results flagged for a closer look

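4 of the 6 genes are listed because the effect of 9 Gy EVs differed from that of 2 Gy EVs in the test of the difference itself, over 6 samples against 6 (edgeR, adjusted over 269 genes). Of all genes tested, 15.6% were called higher and 52% lower in this comparison, so 4 of 6 is near the share over all genes. The log2 difference was 3.86 for Ifnb1 (SE 0.46, edgeR adjusted p = 5.65e-06) and 2.10 for Ifih1 (SE 0.20, edgeR adjusted p = 7.26e-07), higher in 6 of 6 samples. It was -0.66 for Ifnar1 (SE 0.11, edgeR adjusted p = 0.000189) and -0.94 for Ifnar2 (SE 0.13, edgeR adjusted p = 1.75e-05), lower in 6 of 6 samples on the housekeeping scale. After scaling to total counts Ifnar1 was called higher (0.49, edgeR adjusted p = 0.00324) and Ifnar2 turned without a call (0.18), and after TMM scaling Ifnar1 lost its call (-0.20, edgeR adjusted p = 0.109). The 6 samples of a dose are 3 numbers at 2 days, and samples with the same number deviated together between days. With both days of a number averaged, the 4 genes were called too (limma adjusted p = 0.00113 to 0.00528).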

How the results depend on the processing

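Ifnb1 and Ifih1 remained called higher with 9 Gy EVs at both days and against 2 Gy EVs under every alternative run. Leaving out each sample in turn gave log2 changes of Ifnb1 of 3.81 to 4.92 at 9 Gy day 3, 3.57 to 4.62 at 9 Gy day 7 and 3.63 to 4.07 against 2 Gy EVs, and of Ifih1 of 2.11 to 2.54, 1.92 to 2.39 and 1.98 to 2.22. Both replicates numbered 3 left out, chosen after seeing the data, gave 4.69 and 4.32 for Ifnb1 at 9 Gy day 3 and day 7. The replicate number as a block changed no call of the 6 genes, with Ifnb1 at 4.26 and 3.94 and Ifih1 at 2.27 and 2.13 at 9 Gy day 3 and day 7, and only Ifnar2 at 2 Gy day 7 turned under the block (-0.0062).

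The lower calls depended on the scaling, and the cause was not tested. Scaling to total counts left 3 calls at 9 Gy day 7, of Ifnb1, Ifih1 and Ikbke, all higher. It turned Tbk1 to 0.93, 0.48 and 0.82, Ifnar1 to 0.28, 0.27 and 0.49 at 9 Gy day 3, at 9 Gy day 7 and against 2 Gy EVs, and Ifnar2 to 0.15 and 0.18 in the last 2. Tbk1 also turned at 9 Gy day 3 after TMM scaling (0.36), with housekeeping genes of a mean of at least 100 (0.070), with DESeq2's own size factors (0.36) and without the 9 Gy replicates numbered 3 (0.21), and against 2 Gy EVs after TMM scaling (0.14) and with DESeq2's own size factors (0.12), while it was called lower there without the samples with conflicting labels (-0.73). Tbk1 at 9 Gy day 7 lost its call in 6 alternatives other than leaving out a sample, counting the turn after scaling to total counts.

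Placing the samples with conflicting labels at day 7, or leaving them out, turned the difference of day 7 from day 3 to 1.48 or 1.19 for Ifnb1, 0.70 or 0.54 for Ifih1, 0.54 or 0.27 for Tbk1, 0.33 or 0.24 for Ikbke and -0.23 or -0.13 for Ifnar2, and Ikbke against 2 Gy EVs to -0.029 or -0.076. Both treatments leave replicate 3 alone at 9 Gy day 3, so number and day change together in that difference. Over all genes, they gave 74 and 78 calls at 9 Gy day 3 in place of 141. At 9 Gy day 7, a mean of at least 100 gave 109 of 164 genes tested and no filter 243 of 561, in place of 164 of 269. A floor of 20 gave 87 in place of 0 between the 9 Gy days. DESeq2 with housekeeping size factors gave 1 call at 2 Gy day 3 and no filter gave 1 at 2 Gy day 7, in place of 0.

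The 2 Gy changes against sham EVs, which passed in no setting, turned as follows. At 2 Gy day 3 Ifnb1 was at -0.014 with the floor and Ikbke at 0.027 with DESeq2's own size factors. At 2 Gy day 7 Ifnar2 was at -0.0035 after TMM scaling, -0.079 after scaling to total counts and -0.0047 with DESeq2's own size factors, and Tbk1 at -0.013 after scaling to total counts. Leaving out each sample in turn gave -0.30 to 0.75 for Ifnb1, -0.012 to 0.20 for Ifih1 and -0.29 to 0.48 for Ikbke at 2 Gy day 3. At 2 Gy day 7 it gave -0.0082 to 1.09 for Ifnb1, -0.072 to 0.23 for Tbk1, -0.12 to 0.061 for Ifnar1 and -0.042 to 0.068 for Ifnar2. With 9 Gy EVs, where all 3 were called higher after scaling to total counts, it gave -0.31 to 0.21 for Tbk1 at day 3, -0.0050 to 0.77 for Ikbke at day 7 and -0.053 to 0.21 for Ikbke against 2 Gy EVs. Between the 9 Gy days it gave -0.74 to 0.14 for Ifnb1, -0.38 to 0.11 for Ifih1, -0.27 to 0.11 for Ikbke and -0.0046 to 0.36 for Ifnar2.

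Depth limits the 9 Gy day 3 group most, where total counts were 43176 to 87899, and the sham and 2 Gy levels of Ifnb1, which lie near the median of the lymphocyte markers. The subtraction of those markers, the block in the 9 Gy groups alone and the average over the days of a number were chosen after seeing the data.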
